A study of Mus musculus with 12 samples.

Results

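The genes described here encode 10 cell surface receptors of the Siglec, CD300 and Lilrb families in the mouse. They are Siglec1, Cd22, Cd33, Siglece and Siglecg, then Cd300a, Cd300lb, Cd300ld and Cd300lf, and Lilrb4a. They were matched to Ensembl identifiers, 10 of 35697 in the count table of sham and injured mice and 10 of 55637 in the count table of the zileuton experiment. They were chosen by name with their counts in sham mice and after traumatic brain injury (TBI) already known, so the difference between sham and TBI mice in these 10 genes is given as a description and carries no test.

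RNA was sequenced in bulk from the brain of wild-type adult male C57BL/6J mice, in 4 groups of 3 libraries. The series text says that tissue around the contusion was used. In the batch dated 2018, TBI mice received a controlled cortical impact with a 3 mm tip at 1.5 m/s to a depth of 1.5 mm for 100 ms, and sham mice had the surgery with no impact. In the batch dated 2022, one group had the same injury and the other had the injury followed by zileuton, an inhibitor of 5-lipoxygenase, injected intraperitoneally in corn oil at 10 mg/kg per day. The labels call the untreated group of 2022 only TBI, whereas the paper's text speaks of a vehicle group. Tissue was taken 7 days after TBI, although one label field gives 7, 8 and 9 days for the 3 zileuton-treated mice. The count columns of 2022 are numbered 2, 3 and 6 within each group, and those numbers are used here as names only.

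Total counts ran from 42929862 to 48684674 per library in 2018 and from 27845562 to 35453257 in 2022. Small counts were even more often than odd in 2018, in 62.3% to 64.4% of counts between 1 and 20 against 41.9% to 42.9% in 2022, so both reads of a pair may have been counted in 2018. All 6 libraries of 2018 held 856 to 1155 counts of Xist, the RNA of the inactive X chromosome, beside 1042 to 1379 counts of the Y-linked Kdm5d, whereas Xist had at most 6.01 counts in 2022. The 2018 libraries of both groups therefore go against a label of single male mice, and whether animals were pooled is not stated in the sources used here. The microglia markers, the neuron markers and the other brain markers were all well above 0 in every library.

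Siglecs are lectins of the immunoglobulin superfamily that bind sialic acid, the sugar that caps most glycans of the brain cell surface. CD300 receptors bind lipids exposed on dying and activated cells, and Lilrb4a is a leukocyte immunoglobulin-like receptor. Many of these receptors carry an immunoreceptor tyrosine-based inhibitory motif (ITIM), which recruits the phosphatases SHP-1 (Ptpn6), SHP-2 (Ptpn11) and SHIP-1 (Inpp5d) and so dampens signals from activating receptors. In the brain they are best known from microglia, the resident macrophages, and from the myeloid cells that enter after injury. The inhibitory name does not hold for all of the genes. Cd22, Siglece, Siglecg, Cd300a, Cd300lf and Lilrb4a encode receptors with an ITIM, whereas Siglec1 has none and acts in adhesion, Cd300lb pairs with the activating adaptor DAP12 (Tyrobp), Cd300ld pairs with the Fc receptor gamma chain (Fcer1g), and mouse CD33 can also pair with DAP12.

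Most of these genes lie in gene clusters, which bears on how reads were assigned to them. On GRCm38, Cd22, Siglecg, Cd33 and Siglece lie on chromosome 7, the 4 CD300 genes lie within one cluster on chromosome 11, Siglec1 lies on chromosome 2 and Lilrb4a on chromosome 10. The promoters of genes used by myeloid cells often hold the letters GAGGAA, the core bound by the factor PU.1. RefSeq promoter sequence was at hand for 8 of the 10 genes, all but Siglec1 and Lilrb4a. Within the 250 bases before the start, 6 of these 8 genes held GAGGAA on either strand, against 25.9% of the 27025 genes in the table. The shorter GGAA, which lies inside it, stood in 8 of the 8 and in 94.2% of all genes. The 5 sequences that follow were chosen to show where the match lies, read 5′ to 3′ along the gene's strand with GAGGAA or its reverse complement TTCCTC in capitals, and Cd22 is shown as a gene with no match. They are RefSeq sequence of GRCm38.p6, whereas the submitters' processing notes name GRCm39, so positions here describe the reference and not the counting.
Siglece, chr7:43660162-43660411, minus strand: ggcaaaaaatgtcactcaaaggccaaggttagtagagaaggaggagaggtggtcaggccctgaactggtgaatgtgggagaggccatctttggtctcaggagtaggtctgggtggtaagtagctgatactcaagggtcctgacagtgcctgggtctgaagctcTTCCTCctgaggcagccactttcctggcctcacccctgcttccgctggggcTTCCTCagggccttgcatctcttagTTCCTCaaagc
Cd300a, chr11:114889791-114890040, plus strand: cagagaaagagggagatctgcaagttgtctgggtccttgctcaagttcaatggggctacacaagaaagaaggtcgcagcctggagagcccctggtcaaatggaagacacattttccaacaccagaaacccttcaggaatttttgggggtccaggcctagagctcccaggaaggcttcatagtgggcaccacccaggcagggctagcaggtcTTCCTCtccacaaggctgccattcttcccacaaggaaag
Cd300lf, chr11:115133993-115134242, minus strand: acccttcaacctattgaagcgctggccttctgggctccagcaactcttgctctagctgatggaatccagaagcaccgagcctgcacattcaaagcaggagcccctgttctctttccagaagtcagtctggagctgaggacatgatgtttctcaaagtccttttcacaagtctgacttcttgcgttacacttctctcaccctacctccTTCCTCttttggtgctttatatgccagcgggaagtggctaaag
Cd33, chr7:43533172-43533421, minus strand: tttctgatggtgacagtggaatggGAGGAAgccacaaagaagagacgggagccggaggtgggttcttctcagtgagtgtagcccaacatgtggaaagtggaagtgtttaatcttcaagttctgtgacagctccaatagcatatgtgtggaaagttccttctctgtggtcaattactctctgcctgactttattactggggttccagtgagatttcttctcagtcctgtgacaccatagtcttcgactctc
Cd22, chr7:30879029-30879278, minus strand: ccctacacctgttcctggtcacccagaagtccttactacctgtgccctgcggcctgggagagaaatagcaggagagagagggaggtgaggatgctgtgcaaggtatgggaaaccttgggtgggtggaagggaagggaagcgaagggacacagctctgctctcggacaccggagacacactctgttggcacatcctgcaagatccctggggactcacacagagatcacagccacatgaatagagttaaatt
Siglece held 3 matches, which began 87, 36 and 11 bases before the start, all on the opposite strand. The single match of Cd300a began 39 bases before the start and that of Cd300lf 43 bases before it, both on the opposite strand. Cd33 had its match 226 bases before the start and Cd300ld 143 bases before it, on the gene's own strand. The starts listed for Cd33 and Cd22 lie inside the spans given for these genes below, which on the minus strand begin at 43544428 and 30880342. Siglecg has a pair of listed starts and held 2 matches before one of them and none before the other, and Cd300lb held none. A match says only that the letters are present, and binding was not measured.

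To see how these receptor genes differed between uninjured and injured brain, their counts in sham and TBI mice were set side by side. Of the 10 genes, 9 were higher in every TBI library than in every sham library, by between 1.87-fold for Siglece and 289-fold for Cd22. The exception was Siglecg, whose groups overlapped and which was too low to be tested. Among all 19536 genes tested, 24.6% did not overlap and were higher after TBI and 19.8% did not overlap and were lower. In the fit across all genes 8 of the 9 tested genes were called higher and none lower, where 16.8% of all genes were called higher and 11.2% lower, and as the genes were chosen with these values known nothing is read from that count. The 9 genes had a median of 5.31 on the log2 scale, and all genes tested had a median of 0.0166. In bulk tissue, more cells that carry a receptor and more of its RNA per cell cannot be told apart.

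Among the Siglec genes, Siglec1 (ENSMUSG00000027322, chromosome 2, 131069220 to 131086765) encodes sialoadhesin, a receptor of macrophages. It had 17, 16 and 16 counts in the sham libraries and 581, 802 and 600 counts in the TBI libraries. In CPM, the counts scaled to library size by TMM, this was 0.353 ± 0.0213 (SD, n = 3) in the sham group and 14.1 ± 2.33 (SD, n = 3) in the TBI group, and the fitted difference on the log2 scale was 5.31 (SE 0.208). The sham libraries were nearly identical and the lowest TBI library stood far above them.

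Cd22 (ENSMUSG00000030577, chromosome 7, 30865402 to 30880342) encodes a sialic acid receptor with ITIMs, known as the inhibitory co-receptor of B cells and also as a receptor of microglia. It had 1, 0 and 2 counts in the sham libraries and 315, 300 and 367 counts in the TBI libraries. Cd22 was therefore close to absent in sham brain and its 3 TBI libraries lay close together. The ratio of the summed counts was 322, with an exact 95% counting interval of 110 to 1565. If each read pair was counted as 2, the interval was 66.6 to 2001. The ratio was then 242 only because the halved sham sum was rounded up to 2. Its log2 fold change was 8.18 (SE 0.446), the largest of the 10 genes in this fit, and it became 8.99 without sham library 3. With so few sham counts, this SE does not show the full uncertainty of the gene.

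Cd33 (ENSMUSG00000004609, chromosome 7, 43524216 to 43544428) encodes CD33, a Siglec of myeloid cells whose human counterpart is a risk gene for Alzheimer's disease. It had 383, 325 and 394 counts in the sham group and 1537, 1738 and 1625 counts in the TBI group. CPM went from 7.93 ± 0.799 to 34.9 ± 3.31 (SD, n = 3 each), and the fitted difference on the log2 scale was 2.13 (SE 0.118). Cd33 thus started from a level well above 0 and differed by less, on a fold scale, than Siglec1 or Cd22.

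Siglece (ENSMUSG00000030474, chromosome 7, 43651070 to 43660161) encodes an inhibitory Siglec of microglia and neutrophils. It had 46, 27 and 68 counts in the sham libraries and 90, 90 and 87 counts in the TBI libraries. The TBI libraries were nearly identical, whereas the sham libraries spread widely just below them, and the log2 fold change was 0.90 (SE 0.338). Siglece was the only one of the 9 tested genes that was not called.

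Siglecg (ENSMUSG00000030468, chromosome 7, 43408204 to 43418358) encodes an inhibitory Siglec of B cells. It had 2, 0 and 4 counts in the sham group and 2, 15 and 13 counts in the TBI group. One TBI library was at the level of the sham libraries, so the groups overlapped. The ratio of the summed counts was 4.92, with an exact 95% counting interval of 2.02 to 14.5, or 1.39 to 26.5 if each read pair was counted as 2. These intervals cover counting error and not the spread between libraries, and the gene was too low for the fit across all genes.

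The CD300 genes shared a very low level in sham brain, apart from Cd300a. Cd300a (ENSMUSG00000034652, chromosome 11, 114890041 to 114904654) encodes an ITIM receptor for phosphatidylserine and phosphatidylethanolamine. It had 54, 50 and 49 counts in the sham group and 655, 497 and 736 counts in the TBI group. CPM went from 1.10 ± 0.0860 to 13.5 ± 3.45 (SD, n = 3 each), and the fitted difference on the log2 scale was 3.61 (SE 0.226).

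Cd300lf (ENSMUSG00000047798, chromosome 11, 115116214 to 115133992) encodes an ITIM receptor that is also the entry receptor of murine norovirus. It had 2, 4 and 4 counts in the sham group and 147, 321 and 415 counts in the TBI group. The TBI libraries differed more among themselves than for Cd300a, and the log2 fold change was 6.42 (SE 0.557). The gene lies inside Rab37, which is read from the opposite strand and which had 81 to 134 counts in the sham group and 129 to 453 in the TBI group. Rab37 was highest in TBI library 2, where Cd300lf was not highest. Use of the strand in counting is not given in the sources used here, so part of the reads of either gene could belong to the other.

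Cd300lb and Cd300ld, whose receptors pair with activating adaptors, were at or near 0 without injury. Cd300lb (ENSMUSG00000063193, chromosome 11, 114922781 to 114934386), the partner of DAP12, had 4, 0 and 0 counts in the sham group and 186, 133 and 152 counts in the TBI group. The ratio of its summed counts was 116 (exact 95% counting interval 45.0 to 427), and its log2 fold change was 6.73 (SE 0.672). Cd300ld (ENSMUSG00000034641, chromosome 11, 114982274 to 114989922), the partner of the Fc receptor gamma chain, had 0, 6 and 0 counts in the sham group and 100, 123 and 170 counts in the TBI group. Its ratio was 64.5 (29.4 to 177), with a log2 fold change of 5.95 (SE 0.779). For both genes all of the sham counts came from 1 library, and without it the fitted log2 fold change became 10.29 for Cd300lb and 10.04 for Cd300ld, which for genes left with no sham count depends on the fit and is no bound. Without sham library 3 that of Cd300ld was 5.36.

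Lilrb4a (ENSMUSG00000112148, chromosome 10, 51490956 to 51496611) encodes an ITIM receptor known from microglia around amyloid plaques. It had 3, 15 and 7 counts in the sham group and 110, 337 and 257 counts in the TBI group. CPM went from 0.179 ± 0.132 to 5.04 ± 2.47 (SD, n = 3 each), and the fitted difference on the log2 scale was 4.79 (SE 0.588), or 5.49 without sham library 2. TBI library 1 had the lowest level of Lilrb4a and of Cd300lf among the TBI libraries. Of the stretches of 50 bases in the longest Lilrb4a transcript, 22.0% also occur in its neighbour Lilr4b and 29.9% in Gm49339, a gene that spans both, so reads of this locus may be split. For the other 9 genes at most 5.78% of such stretches occur in another gene.

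**Figure D1:**
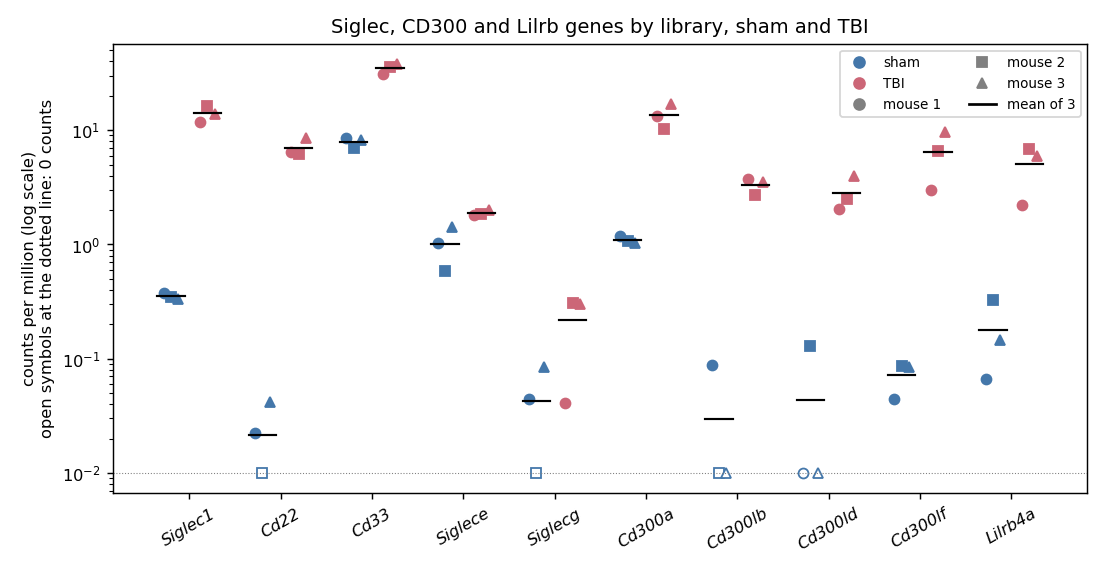
CPM (log axis) of the 10 genes in the 3 sham libraries (blue) and 3 TBI libraries (red), with symbols for libraries 1, 2 and 3 and a black bar at the mean. Open symbols on the dotted line are libraries with 0 counts, and in every gene but Siglecg all TBI points lie above all sham points.

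Levels can be set against each other between genes only per length, as FPKM, which divides by gene length and depth. In sham mice Cd33 was highest at 1.00 ± 0.0981 FPKM (SD, n = 3), followed by Siglece at 0.537 ± 0.226 and Cd300a at 0.229 ± 0.0166, and the ranges of these 3 genes did not overlap. The other 7 genes had means of at most 0.0485 FPKM, and each overlapped with the next in the order. After TBI, Cd33 stayed first at 4.57 ± 0.440 FPKM and its range was clear of the second, Cd300a at 2.90 ± 0.693. From Cd300a down through Siglec1 (2.01 ± 0.364), Cd22 (1.42 ± 0.243), Cd300lf (1.26 ± 0.648), Cd300lb (1.17 ± 0.174), Cd300ld (1.09 ± 0.370) and Siglece (1.04 ± 0.0485) to Lilrb4a (0.984 ± 0.491), neighbours in the order overlapped in range. Siglecg was last at 0.0460 ± 0.0325 FPKM and did not overlap with Lilrb4a. Thus 8 genes that spanned a wide range of levels in sham brain lay between 0.984 and 2.90 FPKM in the TBI group.

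The further genes of the receptor families were examined in the same way, taken by family and not by value. Of 26 further family symbols, 16 were matched in the 2018 table and 9 were tested, of which 7 rose, 0 fell and 2 did not pass the test (edgeR's quasi-likelihood test, Benjamini-Hochberg adjusted over all genes), beside 16.8% of all genes called higher and 11.2% lower, with a median log2 fold change of 2.36. Lilr4b, a closely related neighbour of Lilrb4a, had 2, 0 and 4 counts in the sham group and 249, 362 and 657 counts in the TBI group (log2 fold change 7.65, SE 0.678, adjusted p = 8.17e-05). Pirb, an inhibitory receptor for MHC class I, rose from 0.508 to 8.65 CPM (log2 fold change 4.09, adjusted p = 9.35e-05). Cd300c2, a further gene of the CD300 cluster, rose from 3.28 to 24.7 CPM (log2 fold change 2.91, adjusted p = 1.71e-05).

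The further Siglecs differed in how far they moved. Siglech, a microglial Siglec that signals through DAP12, had 629, 765 and 706 counts in the sham group and 1377, 1226 and 1289 counts in the TBI group (log2 fold change 0.87, adjusted p = 0.000507). Siglech was clearly separated between groups, yet its fold difference was close to that of Siglece and far below that of Siglec1 and Cd22. Siglecf, best known from eosinophils, rose from 0.442 to 2.75 CPM (log2 fold change 2.63, adjusted p = 0.00701). Mag, the myelin-associated glycoprotein of oligodendrocytes and by far the highest of the further family genes in FPKM, rose from 153 to 264 CPM (log2 fold change 0.78, adjusted p = 0.0423) although its groups overlapped. Lilra5 rose by 2.36 on the log2 scale (adjusted p = 0.00106). Cd300e (log2 fold change 1.91, adjusted p = 0.101) and Cd300lg of endothelial cells (0.26, adjusted p = 0.447) did not pass. Cd300ld3 had 0 counts in all sham libraries and 14, 13 and 6 in the TBI group, and was too low to be tested.

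The genes that carry the signal of these receptors were then described by role. Of 14 further ITIM receptors, 13 were tested, and 10 rose, 0 fell and 3 did not pass (16.8% of all genes were called higher and 11.2% lower), with a median log2 fold change of 2.23. Milr1 of mast cells and macrophages rose by 4.86 on the log2 scale (adjusted p = 1.92e-05), Cd72 by 4.41 (adjusted p = 7.26e-05) and the inhibitory Fc receptor gene Fcgr2b by 4.31 (adjusted p = 2.1e-06). Sirpa, the receptor for CD47 that neurons also express, was the highest of them at 73.3 FPKM in the sham group and 81.1 FPKM in the TBI group, with a log2 fold change of 0.095 (adjusted p = 0.466).

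Of the 8 enzymes and adaptors that act behind an ITIM, 6 rose, 0 fell and 2 did not pass (16.8% of all genes were called higher), with a median log2 fold change of 1.06. Ptpn6 (SHP-1), found mainly in blood cells and microglia, rose from 3.46 to 27.8 CPM (log2 fold change 3.01, adjusted p = 1.71e-05), Dok1 rose by 2.37 (adjusted p = 5.79e-05) and Inpp5d (SHIP-1) by 1.53 (adjusted p = 2.75e-05). Inppl1 (SHIP-2) rose by 0.63 (adjusted p = 0.00111). Ptpn11 (SHP-2), which most cells use, was at 215 CPM in the sham group and 230 CPM in the TBI group (log2 fold change 0.097, adjusted p = 0.444). On the activating side, 12 of 12 genes of the ITAM pathway rose, against the 16.8% of all genes called higher, with a median of 2.45. Fgr, a kinase of the Src family, rose by 5.15 (adjusted p = 0.000362), Fcer1g by 3.36 (adjusted p = 2.53e-05) and Tyrobp, the most abundant of them per length, by 3.25 (adjusted p = 3.16e-05).

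The genes that make and remove sialic acid, the ligand of Siglecs, were called about as often as all genes. Of 29 tested, 5 rose, 4 fell and 20 did not pass, where 16.8% of all genes were called higher and 11.2% lower, with a median log2 fold change of -0.091. St6gal1, which makes the sialic acid linkage that CD22 binds, rose from 21.6 to 38.8 CPM (log2 fold change 0.85, adjusted p = 0.000344). Neu4, a sialidase, rose by 0.68 (adjusted p = 0.00471) and St3gal6 by 0.64 (adjusted p = 0.00162). St6gal2 fell by 0.56 (adjusted p = 0.0217), St8sia1 by 0.51 (adjusted p = 0.0158) and St3gal5, the ganglioside GM3 synthase and the most abundant of the list per length, by 0.40 (adjusted p = 0.0201). St3gal2 fell by 0.21 (adjusted p = 0.0449), and St6galnac1 was at 0 counts in every library of both batches. The number called here depends on single libraries, being 5 without sham library 1 and 4 without sham library 3 in place of 9.

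Markers of the cells that can carry these receptors moved with them. Their counts stand beside 16.8% of all genes called higher and 11.2% called lower. The summed level of 9 microglia markers was 319 to 377 CPM in the sham group and 1005 to 1412 CPM in the TBI group, and 9 of 9 rose, among them Csf1r from 95.2 to 333 CPM. The sum of 11 monocyte and macrophage markers was 24.7 to 29.5 CPM in the sham group and 609 to 1357 CPM in the TBI group, and 9 of 11 rose, Lyz2 by 6.44 on the log2 scale (adjusted p = 7.52e-06), and Mrc1 by 1.44 (adjusted p = 0.00235), while Cd163 and Lyve1 did not pass. Neutrophil markers, of which Ly6g was at 0 counts in all libraries of 2022, summed to 0.648 to 1.28 CPM and 16.2 to 62.2 CPM, with 4 of 4 tested higher, mainly S100a9 and S100a8, and mast cell markers to 0.173 to 0.466 CPM and 1.62 to 7.63 CPM, of which Tpsb2 was tested and rose (adjusted p = 0.00286). Of the other brain cells, 3 of 5 neuron markers fell (Snap25 by 0.63, Syt1 by 0.59), 4 of 4 astrocyte markers rose (Gfap by 3.72, Slc1a3 by 0.51) and 2 of 4 oligodendrocyte markers rose (among them Mbp by 0.68). The part of each cell type in the receptor values was not tested.

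Cd22 and Siglecg are B cell genes by reputation, so the B cell markers are given beside them. They summed to 0.715 to 1.40 CPM in the sham group and 2.38 to 2.56 CPM in the TBI group. Ms4a1, which encodes CD20, had 0, 6 and 6 counts in the TBI libraries, beside 300 to 367 counts of Cd22. Of the 6 markers, 2 were tested and the others were too low. Cd79b rose from 0.210 to 1.50 CPM (log2 fold change 2.83, adjusted p = 0.000572), and the other tested marker did not pass. The part of B cells in the values of Cd22 was not tested. T cell markers summed to 8.16 to 21.7 CPM in the sham group and 3.92 to 29.0 CPM in the TBI group, mostly from Cd4. Of 3 tested T cell markers, 1 rose and 2 did not pass, where 16.8% of all genes were called higher.

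**Figure D2:**
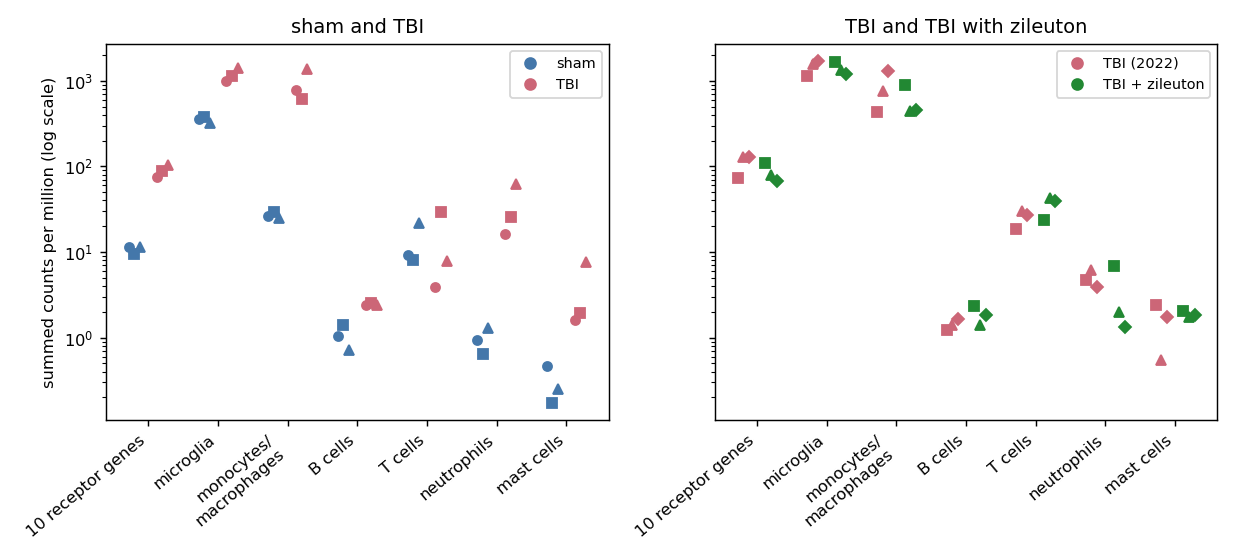
Summed CPM (log axis) of the 10 receptor genes and of the marker lists of 6 immune cell types in each library, sham and TBI on the left and TBI and zileuton-treated TBI on the right, with symbols for library numbers as labelled in the files. The sums of the sham and TBI libraries do not overlap in any list but the T cell markers, and on the right every list overlaps between groups.

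The 2022 batch was used to ask whether the receptor genes differed when 5-lipoxygenase was inhibited after TBI. All 9 tested genes were lower in sign in zileuton-treated mice, but the sign of 5 of them was not stable. Siglece, at -0.000218, turned to 0.00136 with the size factors of DESeq2 and also under other settings. Without TBI mouse 6 the log2 fold change turned to 0.12 for Cd22, 0.22 for Cd33, 0.14 for Cd300a and 0.41 for Cd300lb. The 9 genes had a median of -0.22 on the log2 scale, all genes had 0.00254, and none of the 10 genes separated the groups. None was called at an adjusted p of 0.05 by edgeR's quasi-likelihood test, as was true of all 17363 genes tested (0%). At an unadjusted p of 0.05, 509 genes were higher (2.93%) and 677 lower (3.9%) in zileuton-treated mice, and Siglec1 was the only one of the 10 among them. DESeq2 called 26 genes over the whole table and none of the 10. Groups did not overlap in 6.5% of all genes in the higher direction and 7.04% in the lower direction.

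Siglec1 had the largest difference together with Cd300lf. It had 583, 1857 and 1046 counts in TBI mice 2, 3 and 6 and 846, 662 and 415 counts in zileuton-treated mice 2, 3 and 6. The level was 36.8 ± 16.5 CPM (SD, n = 3) in TBI mice and 21.0 ± 6.67 CPM (SD, n = 3) in zileuton-treated mice. The log2 fold change was -0.81 (SE 0.348, 95% interval -1.61 to -0.00931), with an unadjusted p of 0.0479 and an adjusted p of 0.713. The lowest TBI mouse lay within the range of the zileuton-treated mice, and without TBI mouse 3 the log2 fold change was -0.44.

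Cd300lf had 193, 453 and 283 counts in TBI mice and 275, 156 and 85.4 counts in zileuton-treated mice. Its log2 fold change was -0.81 (SE 0.391, 95% interval -1.71 to 0.087, adjusted p = 0.713). Cd300ld had 55, 89.2 and 54 counts in TBI mice and 65.2, 36.2 and 29 counts in zileuton-treated mice, a log2 fold change of -0.57 (SE 0.330, 95% interval -1.33 to 0.19). Lilrb4a had 253, 244 and 229 counts in TBI mice and 247, 149 and 150 counts in zileuton-treated mice, a log2 fold change of -0.40 (SE 0.219, 95% interval -0.90 to 0.10). In each of these 3 genes, zileuton-treated mouse 2 lay within the range of the TBI mice and the other two zileuton-treated mice lay below it.

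Cd33 and Siglece had the smallest differences. Cd33 had 564, 942 and 1001 counts in TBI mice and 904, 843 and 717 in zileuton-treated mice, and its log2 fold change was -0.013 with a 95% interval of -0.47 to 0.45. Siglece had 46, 55 and 38 counts in TBI mice and 45, 53 and 39 in zileuton-treated mice, with a 95% interval of -0.53 to 0.53. A log2 change of 1 in either direction lies outside both intervals.

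The remaining genes had wide intervals on both sides of 0. Cd22 had 189, 440 and 482 counts in TBI mice and 451, 257 and 234 in zileuton-treated mice, with a log2 fold change of -0.22 (95% interval -1.05 to 0.61). Cd300a had 181, 376 and 394 counts in TBI mice and 376, 289 and 192 in zileuton-treated mice, with a log2 fold change of -0.14 (95% interval -0.85 to 0.58). Cd300lb had 48, 85 and 122 counts in TBI mice and 120, 78 and 51 in zileuton-treated mice, with a log2 fold change of -0.039 (95% interval -0.97 to 0.90). For these 3 genes the spread within each group was as wide as the distance between the groups. Siglecg had 0 to 3 counts in TBI mice and 1 to 2 in zileuton-treated mice and was not tested.

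**Figure D3:**
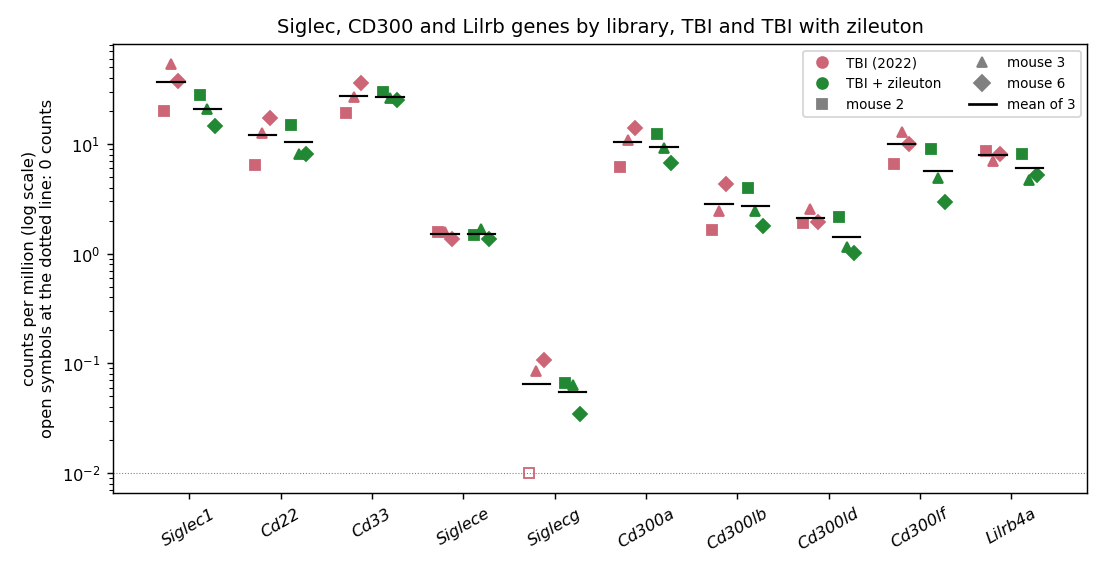
CPM (log axis) of the 10 genes in the 3 TBI libraries of 2022 (red) and the 3 libraries of zileuton-treated TBI mice (green), with symbols for mice 2, 3 and 6 and a black bar at the mean. The groups overlap in every gene, and zileuton-treated mouse 2 is the highest of its group in 8 of the 9 tested genes and TBI mouse 2 the lowest of its group in 7 of them.

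**Figure D4:**
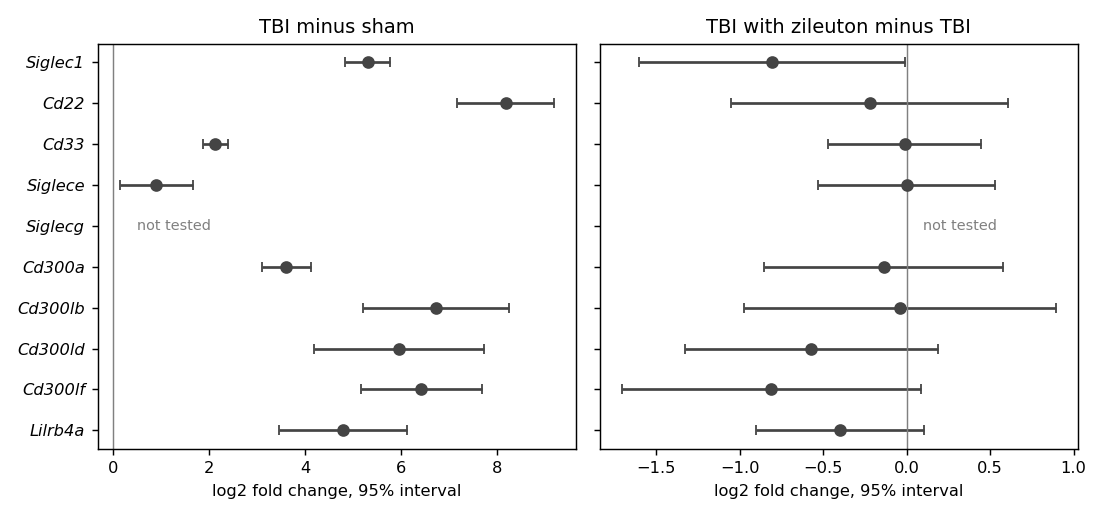
Fitted log2 fold change with its 95% interval for each gene, TBI minus sham on the left and zileuton-treated TBI minus TBI on the right, on axes of different width. The genes were chosen with the values on the left known, so those intervals describe the fit and carry no test. On the right the interval of Siglec1 is the only one that does not include 0, with an upper bound of -0.00931.

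The genes varied together among mice. TBI mouse 2 had the lowest CPM of its group in 7 of the 9 tested genes. Among zileuton-treated mice, mouse 2 was highest in 8 of 9 genes and mouse 6 was lowest in 7 of 9. The sum of the 10 genes was 72.4, 130 and 130 CPM in TBI mice 2, 3 and 6 and 109, 79.3 and 66.7 CPM in zileuton-treated mice 2, 3 and 6. Microglia markers summed to 1136, 1557 and 1700 CPM in the same TBI mice and 1667, 1324 and 1199 CPM in the same zileuton-treated mice. Monocyte and macrophage markers summed to 436, 752 and 1306 CPM and to 899, 439 and 453 CPM. Astrocyte markers summed to 3368, 3946 and 4546 CPM and to 4996, 3492 and 3534 CPM. In these 3 lists TBI mouse 2 was the lowest of its group and zileuton-treated mouse 2 the highest of its group, as for the receptor sum. The B cell marker sum was ordered likewise for mouse 2 of each group. The same held for the sums of the further ITIM receptors, the ITIM effectors and the ITAM genes, so this order was not limited to cell type markers. The T cell, oligodendrocyte, neuron, neutrophil and mast cell marker sums did not follow. T cell markers, for example, summed to 23.5 CPM in zileuton-treated mouse 2, the lowest of its group. How often other genes took the same order was not counted. The part of these cells in the receptor values was not tested.

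Per length, in TPM, Cd33 was again first in TBI mice of 2022 at 12.2 ± 2.54 TPM (SD, n = 3), followed by Cd22 at 11.9 ± 4.46, Siglec1 at 9.19 ± 4.27, Cd300lf at 8.93 ± 3.35 and Lilrb4a at 8.89 ± 1.48, whose neighbours all overlapped. Cd300a at 4.18 ± 1.32 TPM was clear of both of its neighbours, above Cd300lb at 1.97 ± 0.801, Siglece at 1.57 ± 0.186 and Cd300ld at 1.49 ± 0.282. Siglecg was last at 0.0433 ± 0.0379 TPM. The tables of the 2 batches were made and scaled separately, so TPM and FPKM are not compared. Cd300ld4, a paralog of Cd300ld, differed in level between the batches, with at most 4 counts in a library of 2018 and 107 to 291 counts in 2022. Of the 50-base stretches of its transcript, 93.8% also occur in Cd300ld5. The cause of the difference was not tested.

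In the other lists nothing was called in zileuton-treated mice. Of the 12 tested family genes 9 were lower in sign and 3 higher, with a median log2 fold change of -0.21, and 0 passed even an unadjusted p of 0.05. Lilr4b had 145, 268 and 155 counts in TBI mice and 179, 120 and 68.4 counts in zileuton-treated mice (log2 fold change -0.60, adjusted p = 0.717). Gm49339, which overlaps Lilrb4a and Lilr4b and was looked up for that reason, had 245, 371 and 328 counts in TBI mice and 236, 200 and 133 in zileuton-treated mice, with no overlap (log2 fold change -0.72, unadjusted p = 0.00882, adjusted p = 0.713). These genes share sequence with Lilrb4a, so their values may rest in part on the same reads.

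The ITIM receptors had a median of -0.13 (0 of 13 with an unadjusted p under 0.05), the ITIM effectors -0.068 (1 of 8), the ITAM genes -0.22 (0 of 12) and the sialic acid genes 0.031 (1 of 29). The effector was Ptpn11, which had 221, 255 and 225 CPM in TBI mice and 260, 277 and 279 CPM in zileuton-treated mice (log2 fold change 0.22, unadjusted p = 0.0297, adjusted p = 0.713). The sialic acid gene was the sialidase Neu2, at 5.42 ± 0.291 CPM in TBI mice and 6.97 ± 0.933 CPM in zileuton-treated mice (SD, n = 3 each, log2 fold change 0.36, unadjusted p = 0.041). Among the markers, the monocyte genes Chil3 (log2 fold change -1.59, unadjusted p = 0.00808) and Ly6c2 (-1.11, unadjusted p = 0.0223) did not overlap and were lower in zileuton-treated mice, and neither was called after adjustment.

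**Figure D5:**
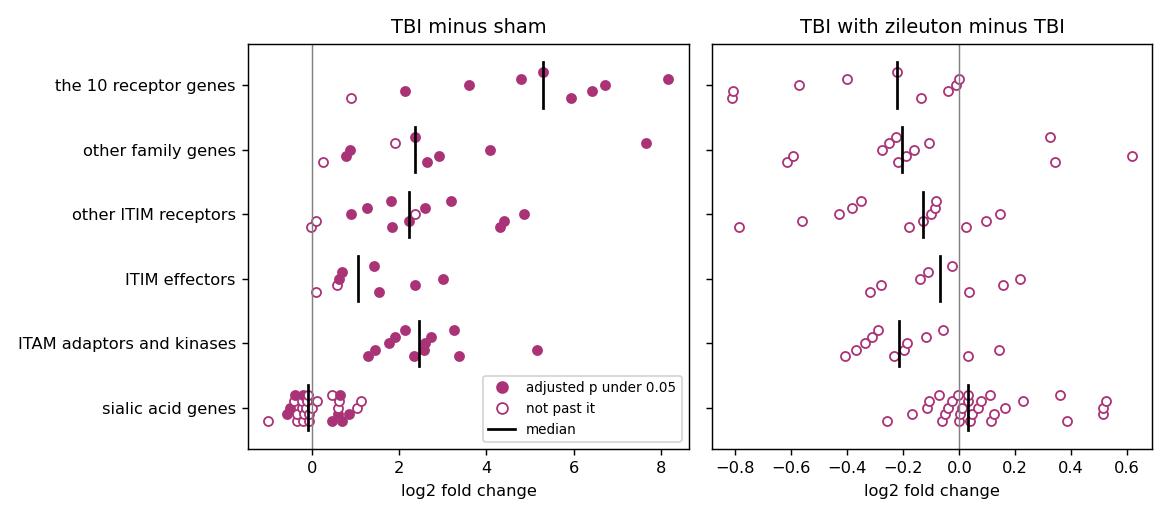
Log2 fold changes of the tested genes of each list, one point a gene, filled where the adjusted p was under 0.05, with a black bar at the list's median, TBI minus sham on the left and zileuton-treated TBI minus TBI on the right (axes of different width). Every list but the sialic acid genes lies mostly to the right of 0 in the TBI group, and no point is filled on the right.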

How the data were processed

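Bulk mRNA of mouse brain was sequenced as read pairs. The submitters' processing notes name HISAT2, featureCounts of Subread, DESeq2 and GRCm39, with no versions. For 2018 the authors deposited whole-number counts per gene and FPKM, and for 2022 the authors deposited estimated counts, 13.7% of them not whole, and TPM. The estimated counts were rounded, although the plan had assumed whole counts.

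The 10 genes and all lists were chosen with earlier results of these data known, so no comparison of the 10 genes is independent support. Each batch was tested with edgeR 4.0.16's quasi-likelihood test (filterByExpr, TMM, two-sided, Benjamini-Hochberg adjustment over all genes tested, threshold 0.05), on 19536 genes of 2018 and 17363 of 2022. Groups came from the labels, and the 2022 columns name a group and a number. The p-values measure the spread between these libraries. Each SE was computed as the size of the log2 fold change divided by the square root of the test's F statistic. The 95% intervals of log2 fold changes were built from that SE. For genes near 0 in sham mice, such an SE can understate the uncertainty. Counting intervals (exact, 95%) cover counting error only. All 10 genes were named in full. Of every other list the 3 largest rises and falls past the threshold and the 2 highest in FPKM were named, with genes below an unadjusted p of 0.05 and without overlap for zileuton. Some genes that this rule names are not reported here. The fits were tested on simulated data. Alternatives were DESeq2 1.42.0, other filters and scalings, limma 3.58.1 on FPKM or TPM with pseudocounts of 1 and 0.1, a two-sample test with equal variance, a gene length trend, counts divided by 2, a replicate block and leaving out each library. Positions are from GENCODE and promoters from RefSeq, both on GRCm38 and not on the GRCm39 of the processing notes, matched by identifier or symbol (8 of 10 genes for promoters), with no conversion. A planned search of protein sequences was not run.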

Additional observations from a re-analysis of the deposited data

How the results depend on the processing

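In the comparison of sham and TBI, 8 of the 9 tested receptor genes were called, and 8 or 9 under every alternative but 2. As the genes were chosen with these values known, nothing is read from these counts. With at least 10 counts in every library, a filter that removes genes near 0 in sham mice, 4 of the genes were tested and 3 called. In that setting 5220 of all 17287 genes tested were called. With the two-sample test with equal variance on FPKM, 6 receptor genes were called, 3 further family genes in place of 7, 4 further ITIM receptors in place of 10, 7 ITAM genes in place of 12 and 5 sialic acid genes in place of 9. That test called 2625 of all 15873 genes. The sialic acid genes also gave 5 calls with limma on log2(value + 1) and no filter, and 4 to 9 with each library left out. The log2 fold changes of the receptor genes kept their sign throughout, but their size depended on the method. Over the alternatives they ran from 1.26 to 8.99 for Cd22, 1.10 to 10.3 for Cd300lb and 1.47 to 2.21 for Cd33. The lowest value of each came from limma on log2(value + 1). With the two-sample test on FPKM, Cd22 had 3.86. For zileuton, none of the receptor genes, further family genes, ITIM receptors, ITIM effectors, ITAM genes or sialic acid genes was called under any alternative (markers and overlapping genes were not run), whereas DESeq2 called 26 genes over the whole table. The sign held throughout for Siglec1, Cd300ld, Cd300lf and Lilrb4a. That of Siglece turned with DESeq2 size factors (0.00136), DESeq2 (0.00187), at least 10 counts in every library (0.000268), limma on log2(value + 1) with and without a filter (0.117), limma on log2(value + 0.1) (0.177), the two-sample test with equal variance (0.176) and the gene length trend (0.043), and that of Cd300a with the two-sample test with equal variance (0.00561). With each library left out, the log2 fold change ran from -0.57 to 0.12 for Cd22, -0.21 to 0.22 for Cd33, -0.081 to 0.069 for Siglece, -0.40 to 0.14 for Cd300a and -0.40 to 0.41 for Cd300lb. The cause was not tested. Libraries with the same number did not deviate together (correlations of -0.094 to -0.023 in 2018 and -0.28 to 0.063 in 2022), so the numbers were not taken as pairs. The replicate block gave 4337 calls in place of 5479 in 2018 and turned Cd33 to 0.025 in 2022, where 729 genes passed an unadjusted p of 0.05 in place of 1186. GGAA in place of GAGGAA was found in 8 of 8 promoters in place of 6. Depth limits Siglecg and the sham levels of Cd22, Cd300lb and Cd300ld.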
